A study of Mus musculus with 8 samples.

Results

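The transcription factor p53, encoded by Trp53, and 9 genes that it binds and switches on directly (Mdm2, Ccng1, Bbc3, Pmaip1, Bax, Sesn1, Zmat3, Phlda3 and Eda2r) were followed in primary hepatic stellate cells of the mouse, turned myofibroblastic in culture (pMF-HSCs) and treated with an inhibitor of O-GlcNAc transferase (OGT). The members were taken by symbol from the gene tables, where all 10 of 10 were found among 40840 genes, and all 10 were among the 19963 genes that had enough counts to be tested. RNA-seq was performed on 4 control and 4 treated cultures. Stellate cells had been sorted from livers of wild-type C57BL/6J male mice aged 15 to 18 weeks on the fluorescence of their retinol stores, and had turned into myofibroblasts over 7 days of culture. Control cultures then received vehicle (DMSO) and treated cultures 50 µM OSMI-1, the OGT inhibitor (OGTi), for 24 h. Both groups thus share the activation by culture, only 1 inhibitor and 1 time were tested, and sorting on retinol keeps the stellate cells that store it. The labels call the 4 cultures of each group biological replicates, and the study's methods pair the treated and the control culture of one number. Neither says how many animals went into a culture.

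p53 is a stress sensor that is mostly regulated as a protein. In unstressed cells MDM2 marks it for destruction, whereas DNA damage, oncogene activity or ribosomal stress frees it, and it then binds paired half-sites in DNA and raises the transcription of its targets. These include Mdm2 itself, which closes a feedback loop, brakes on the cell cycle, and triggers of cell death. In liver fibrosis, p53 activity in stellate cells is known for its link to senescence, a lasting arrest that limits scar formation. RNA levels of the targets are often read as an output of p53, but several of them also answer to other factors. p53 protein and its sugar modification were not measured in these libraries.

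To show what p53 recognises, stretches around the start site of each gene were searched for the p53 half-site (a motif of 10 letters that reads the same on both strands) in the GRCm39 genome, from 2000 bases before to 2000 bases after the start of the canonical transcript. A match here is either a pair of perfect half-sites at most 13 bases apart, or a pair of adjacent half-sites with at most 2 mismatches outside their 4-letter cores. Such a pair was found in 3 of 10 members (Ccng1, Zmat3 and Pmaip1), in 9 of 30 other direct targets of p53 and in 727 of 21738 protein-coding genes (3.34%). The sites of Ccng1 and Zmat3, both in intron 1, are shown with the cores of the half-sites in capitals, as read on the strand of the gene. The site of Ccng1 (chr11:40645763-40645782, minus strand) starts 356 bases after the start of transcription and has 1 mismatch, and that of Zmat3 (chr3:32418480-32418499, minus strand) starts 1409 bases after it and is perfect.
Ccng1: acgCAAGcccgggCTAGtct
Zmat3: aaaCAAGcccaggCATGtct

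A single half-site was present in that window in 9 of 10 members and in 72.7% of protein-coding genes. In the shorter RefSeq windows (build GRCm38.p6, 250 bases before to 50 after a start), 8 members were matched (Zmat3 and Pmaip1 were not), of which 5 held a half-site, against 9.55% of 27025 genes, and 0 held a pair. A match is a run of letters and not evidence of binding.

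The libraries held 30068881 to 37372423 expected counts, and each member had at least 127 counts in every library, other than Bbc3. OGTi replicate 4 detected 23746 genes, against 19035 to 20293 in the other libraries. Myofibroblast and stellate markers were abundant (summed TPM of 3140 to 7310 over 10 genes, with Acta2 at 1310 to 2590), of which Pdgfrb and Lrat were lower in OGTi (log2 fold change -1.68, adjusted p 0.00154, and -1.78, adjusted p 0.00232). Markers of endothelial cells, hepatocytes and lymphocytes summed to at most 2.99, 1.70 and 0.86 TPM. At these low levels Tek (adjusted p 0.00235) and Lyve1 (0.034) were lower in OGTi and Cyp2e1 (0.00591) was higher. Macrophage markers summed to 49.8 to 175 TPM in control and 90.2 to 230 in OGTi, mostly Lyz2 and Cd68, of which Cd68 was higher (adjusted p 0.00154). Csf1r had 3.58 to 6.66 TPM in control and 2.22 to 5.39 in OGTi, and Cd5l reached 6.21 and 4.19. Adgre1, Clec4f and Marco were at or below 0.96, 0.27 and 0.22. Cholangiocyte markers summed to 307 to 654 and 128 to 563 TPM, mostly Spp1 and Krt19. Epcam was at or below 0.79, and Krt7 reached 2.53 in control and 5.05 in OGTi. Krt19 was lower (log2 fold change -0.66, adjusted p 0.0462) and Sox9 higher, at 0.42 to 1.96 TPM in control and 3.03 to 22.8 in OGTi (3.03, adjusted p 0.00858). Their part in the members' values was not tested.

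None of the 10 members passed the test across all genes. At a Benjamini-Hochberg adjusted p of at most 0.05, edgeR's quasi-likelihood fit of the paired cultures called 0 of 10 members higher, against a background of 8.13% of all genes tested, and 0 of 10 lower, against 10.2%. In either direction, 18.4% of all genes were called. Before adjustment, 4 of 10 members had a p under 0.05 (Ccng1 and Bax lower, Bbc3 and Phlda3 higher), against 31.8% of all genes. DESeq2 also called 0 of 10. The median log2 fold change of the members was -0.18, against 0.01 for all genes. In bulk RNA, fewer cells that express a gene and less RNA per cell cannot be told apart.

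**Figure D1:**
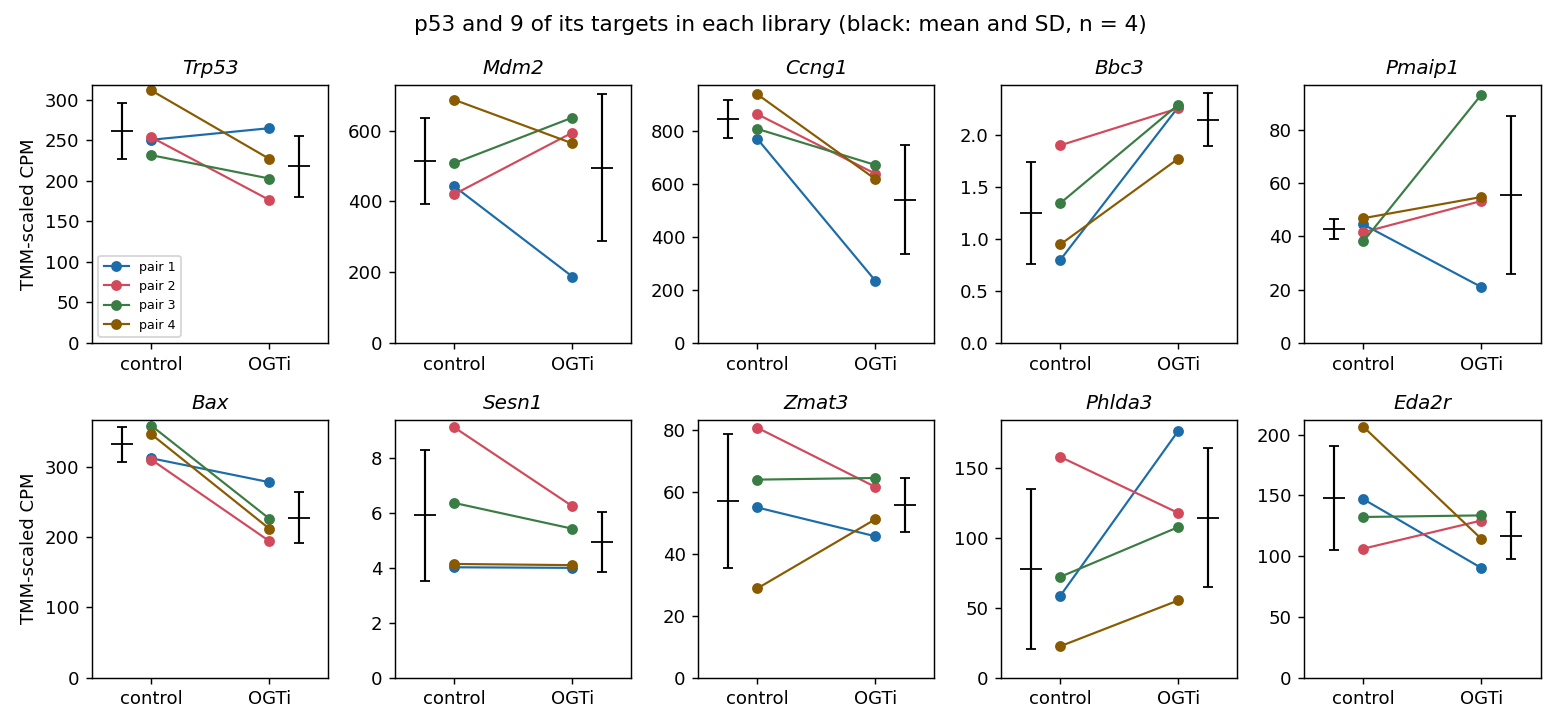
Level of each of the 10 genes in every library, as TMM-scaled CPM (vertical axis, linear and from 0), in control and OGTi cultures. Lines join the cultures of one pair, and black marks give the mean and SD of each group (n = 4). Only Ccng1 and Bax have groups that do not overlap, and the pair 1 line falls most steeply for Mdm2, Ccng1 and Pmaip1.

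Trp53 itself (chromosome 11, 69469669 to 69482701, plus strand) was abundant in both groups. Control replicates 1 to 4 had 251, 254, 232 and 312 scaled CPM (read counts relative to the size of the library, corrected for its composition by TMM), and OGTi replicates 1 to 4 had 265, 176, 203 and 227. Treated cultures were lower in 3 of 4 pairs and the groups overlapped. For Trp53 the log2 fold change was -0.27 ± 0.19 (SE, 95% interval -0.70 to 0.15, edgeR adjusted p 0.369). Leaving out 1 pair moved it between -0.39 (without replicate 1, adjusted p 0.145) and -0.16 (without replicate 2, adjusted p 0.688). In TPM (corrected for gene length and scaled to the same sum in every library), the groups did not overlap (246 to 324 in control, 166 to 192 in OGTi), and limma-trend on log2(TPM + 1) called Trp53 lower, with a log2 fold change of -0.60 (adjusted p 0.0194). On that scale the median of all genes lay at -0.10. Unit, test and scaling all differ between these fits, and with library totals in place of TMM alone Trp53 was at -0.47 (edgeR adjusted p 0.112).

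Mdm2 encodes the ubiquitin ligase that holds p53 down, and its gene (chromosome 10, 117524780 to 117546730, minus strand) is among the most sensitive p53 targets. Its scaled CPM were 443, 420.3, 508 and 688 in control replicates 1 to 4 and 188, 595, 637 and 564 in OGTi replicates 1 to 4. OGTi replicate 1 was far below the other treated cultures, while OGTi replicates 2 and 3 were above their paired controls. Thus 2 pairs went up and 2 went down, with log2 differences from -1.24 in pair 1 to 0.50 in pair 2. Mdm2 had a log2 fold change of -0.17 ± 0.28 (SE, 95% interval -0.79 to 0.45, edgeR adjusted p 0.739). Without replicate 1 it was 0.18 (adjusted p 0.566). With all pairs kept and each library's trend on gene length removed it was 0.03 (adjusted p 0.952), so that its sign changed in both fits.

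Ccng1 encodes cyclin G1, a p53 target that recruits a phosphatase to MDM2, and it lies on chromosome 11 (40639377 to 40646148, minus strand). Control replicates 1 to 4 had 772, 865, 809.5 and 940.4 scaled CPM and OGTi replicates 1 to 4 had 235, 639.7, 673 and 619. Every treated culture was below every control culture. The log2 fold change was -0.75 ± 0.25 (SE, 95% interval -1.30 to -0.19), a ratio of 0.595 to control, with an edgeR adjusted p of 0.0637. Here too OGTi replicate 1 stood apart, with a log2 difference of -1.72 in its pair and of -0.27 to -0.60 in the other pairs. Without replicate 1 the log2 fold change was -0.43 (adjusted p 0.0916).

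Bax, the pore-forming executioner of mitochondrial cell death, has a short transcript on chromosome 7 (45111015 to 45116325, minus strand). It had 313, 311, 359 and 347 scaled CPM in control replicates 1 to 4 and 279, 195, 227 and 212 in OGTi replicates 1 to 4. The groups did not overlap and all 4 pairs were lower. Bax had a log2 fold change of -0.55 ± 0.19 (SE, 95% interval -0.98 to -0.13, edgeR adjusted p 0.0701). For Bax pair 1 was the smallest difference (-0.17, against -0.67 to -0.71 in the other pairs), and without replicate 1 the gene passed (log2 fold change -0.68, adjusted p 0.0238). It also passed with each library's trend on gene length removed (log2 fold change -0.67, adjusted p 0.00904).

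Ccng1 and Bax were the 2 members of 10 in which every OGTi value lay below every control value, a pattern seen in 12% of all genes tested. The opposite pattern was seen in 0 of 10 members and in 11.5% of all genes. All 4 pairs moved the same way in 4 of 10 members (Ccng1, Bax and Sesn1 lower, Bbc3 higher), against 40.9% of all genes. With 10 members, counts of 2, 0 and 4 are read against these shares and do not set the members apart.

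The BH3-only genes Bbc3 (PUMA) and Pmaip1 (NOXA) encode small proteins that disarm the BCL-2 family guards of the mitochondrion. Bbc3 (chromosome 7, 16042318 to 16052130, plus strand) was barely expressed, with 31 to 79 counts per library. It had 0.798, 1.90, 1.34 and 0.946 scaled CPM in control replicates 1 to 4 and 2.27, 2.26, 2.29 and 1.77 in OGTi replicates 1 to 4. All 4 pairs were higher, but control replicate 2 lay above OGTi replicate 4, so the groups overlapped. The log2 fold change was 0.85 ± 0.35 (SE, 95% interval 0.08 to 1.61, edgeR adjusted p 0.121). In limma-trend it was 0.33 on log2(TPM + 1) and 0.52 on log2(TPM + 0.1), where the added value weighs on so low a gene (adjusted p 0.2 and 0.232).

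Pmaip1 (chromosome 18, 66591604 to 66598636, plus strand) was even in control, with 44.5, 41.6, 38.1 and 46.8 scaled CPM in replicates 1 to 4. Under OGTi the 4 replicates had 20.97, 53.3, 93.3 and 54.8. Treated replicates 2 to 4 were above all controls and treated replicate 1 was below them all, so that the SD went from 3.78 in control to 29.6 in OGTi. Over all pairs the log2 fold change was 0.21 ± 0.34 (SE, 95% interval -0.55 to 0.96, edgeR adjusted p 0.733), and it was 0.63 without replicate 1 (adjusted p 0.131), -0.16 without replicate 3 (adjusted p 0.833) and -0.11 in TPM by limma-trend (adjusted p 0.855).

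Eda2r encodes XEDAR, a death receptor of the tumour necrosis factor receptor family that binds ectodysplasin A2, and lies on chromosome X (96320270 to 96420847, minus strand). Its scaled CPM were 147, 106, 132 and 207 in control replicates 1 to 4 and 90.3, 129, 134 and 114 in OGTi replicates 1 to 4. With 2 pairs up and 2 down, the log2 fold change was -0.32 ± 0.24 (SE, 95% interval -0.85 to 0.22, edgeR adjusted p 0.411). The groups overlapped broadly. Leaving out 1 pair moved the value to -0.18 (without replicate 1), -0.49 (without replicate 2), -0.43 (without replicate 3) or -0.12 (without replicate 4), with adjusted p of 0.256 to 0.811, and in limma-trend on TPM it was -0.50 and -0.51.

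Phlda3, which encodes a small protein that keeps the kinase AKT off the membrane, lies on chromosome 1 (135693809 to 135697686, plus strand) and varied most between control cultures relative to its mean. Control replicates 1 to 4 had 58.6, 158, 72.1 and 22.5 scaled CPM, and OGTi replicates 1 to 4 had 177, 118, 108 and 55.3. It was higher in 3 of 4 pairs, and pair 2, with the highest control, went down. The log2 fold change was 0.77 ± 0.32 (SE, 95% interval 0.06 to 1.48, edgeR adjusted p 0.125), and without replicate 2 the gene passed, with a log2 fold change of 1.19 (adjusted p 0.0252). Without replicate 1 it was 0.49 (adjusted p 0.342).

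Zmat3 and Sesn1 had intervals that reached well to both sides of 0. Zmat3 (chromosome 3, 32388941 to 32420163, minus strand), an RNA-binding zinc finger protein that acts on splicing and mRNA stability, had 55.0, 80.7, 64.0 and 28.8 scaled CPM in control replicates 1 to 4. In OGTi replicates 1 to 4 it had 45.7, 61.6, 64.5 and 51.2, all within the range of the controls. Its log2 fold change was 0.04 ± 0.25 (SE, 95% interval -0.51 to 0.59, edgeR adjusted p 0.934), and it was -0.15 with library totals alone and -0.20 without replicate 4 (adjusted p 0.621). Sesn1 (chromosome 10, 41685931 to 41784423, plus strand), a sestrin that restrains the growth kinase mTORC1 and supports antioxidant defence, had 4.01, 9.10, 6.35 and 4.13 scaled CPM in control replicates 1 to 4 and 3.99, 6.23, 5.42 and 4.09 in OGTi replicates 1 to 4. All 4 pairs were nominally lower, yet pairs 1 and 4 differed by only -0.01 and -0.01 on the log2 scale. The log2 fold change of Sesn1 was -0.20 ± 0.25 (SE, 95% interval -0.75 to 0.35, edgeR adjusted p 0.633). Without replicate 2 it was -0.06 (adjusted p 0.917), and in limma-trend it was -0.40 on log2(TPM + 1) and -0.50 on log2(TPM + 0.1), with adjusted p of 0.183 and 0.181. GENCODE places further genes on the strand of Bax (Gm45808) and of Sesn1 (9930024M15Rik, Gm66135 and Gm66138), but the deposited tables, with RefSeq transcripts, list none under these names, so that reads from them could count toward Bax or Sesn1.

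**Figure D2:**
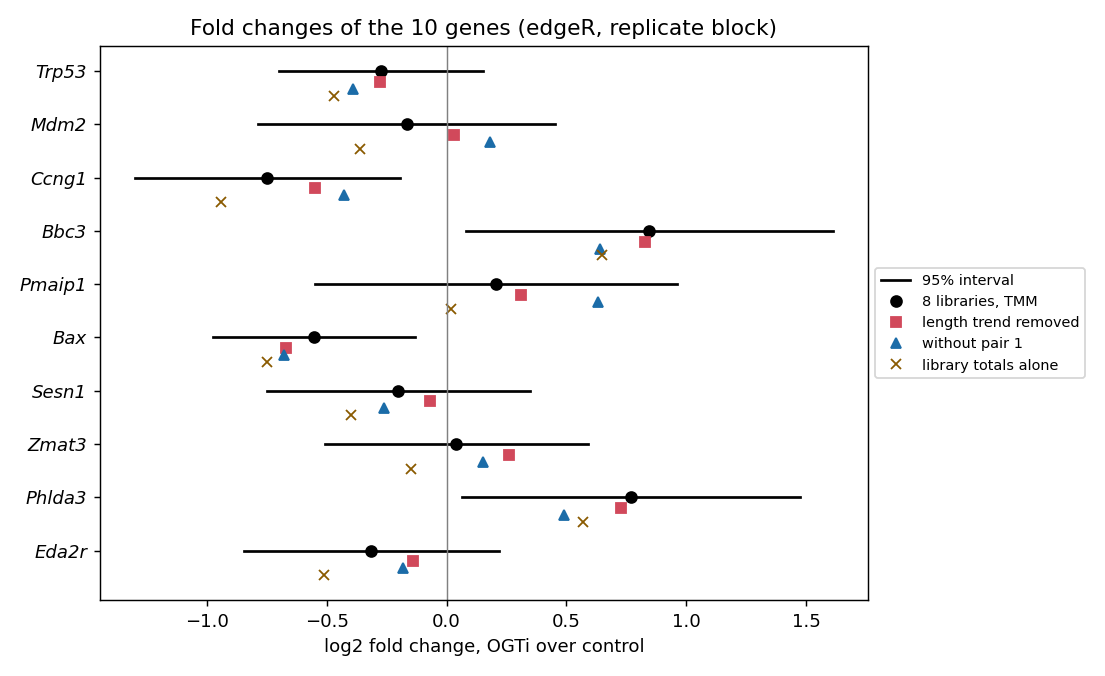
Log2 fold change of OGTi over control for each gene (horizontal axis). Black points and bars give the edgeR estimate from 8 libraries and its 95% interval, and coloured marks give the estimate with the length trend removed, without pair 1 and with library totals alone. The intervals of Ccng1, Bax, Bbc3 and Phlda3 lie on one side of 0 before adjustment for the number of genes. Mdm2 changes sign without pair 1 and with the length trend removed, and Zmat3 with library totals alone.

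OGTi replicate 1 stood apart from the other treated libraries in a second way. Relative to the mean of the treated group, the fifth of expressed genes with the shortest transcripts lay at a median of 0.44 there and the fifth with the longest at -0.35 (log2 scale). In the other 3 treated libraries the shortest lay between -0.28 and -0.05 and the longest between 0.07 and 0.19. The members differ in effective transcript length, from 652 bases for Bax and 1235 for Phlda3 to 3150 for Mdm2, 3239 for Ccng1 and 7692 for Zmat3. With the trend removed, the log2 fold change of Mdm2 was 0.03 (adjusted p 0.952) and that of Ccng1 was -0.55 (adjusted p 0.0685). Trp53 (-0.28), Bbc3 (0.83) and Phlda3 (0.73) stayed close to their values with the trend left in. Zmat3 went from 0.04 to 0.26 (adjusted p 0.505), Eda2r from -0.32 to -0.14, Sesn1 from -0.20 to -0.07 and Pmaip1 from 0.21 to 0.31. The part of transcript length in the low values of Mdm2 and Ccng1 there was not tested beyond this.

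The order of the members by abundance was compared in TPM, which corrects for length. In control, Bax was highest (887 ± 82.7, SD, n = 4), followed by Ccng1 (454 ± 40.5), Mdm2 (285 ± 69.5), Trp53 (271 ± 35.7), Phlda3 (109 ± 79.5), Eda2r (83.9 ± 23.5), Pmaip1 (30.7 ± 2.53), Zmat3 (12.9 ± 4.84), Sesn1 (3.87 ± 1.53) and Bbc3 (1.41 ± 0.526). Mdm2 and Trp53 overlapped, as did Phlda3 and Eda2r, whereas the other neighbours in this order did not. Cultured stellate cells thus carried plentiful Bax, Ccng1, Mdm2 and Trp53 transcripts in vehicle, and very little Bbc3. In OGTi, Bax had 481 ± 19.0 and Ccng1 239 ± 104 TPM.

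**Figure D3:**
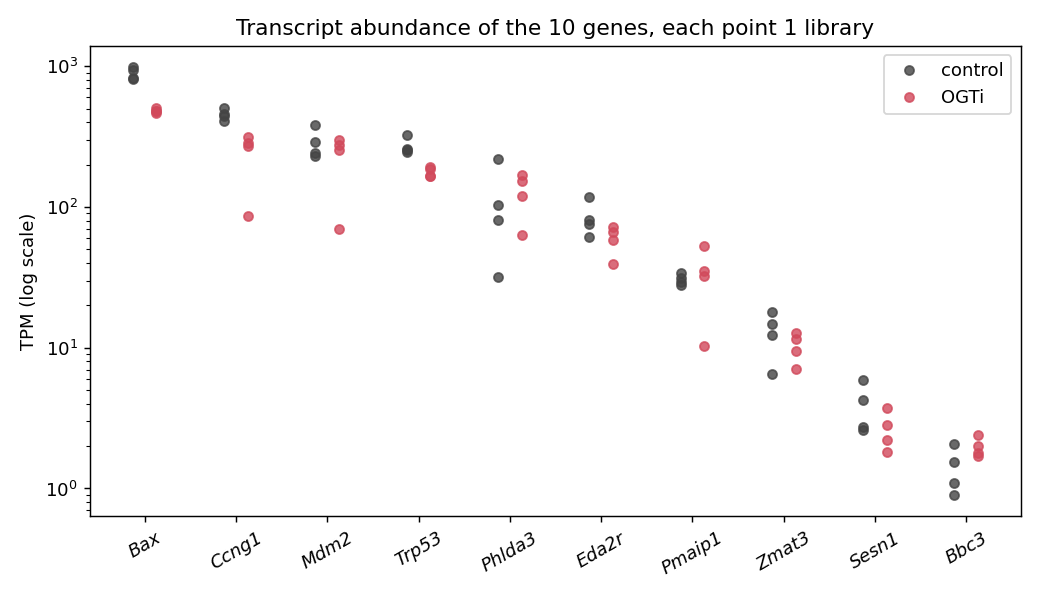
Transcript abundance in TPM (vertical axis, log scale) of the 10 genes, ordered by their mean in control, with 1 point per library. The span runs from 461 to 981 TPM for Bax down to 0.9 to 2.4 TPM for Bbc3.

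The genes whose pattern over the 8 libraries was most like that of Trp53 (Pearson correlation of log2 CPM, among 8148 genes with a mean of at least 10 CPM) were Isy1 (r = 0.949), Snrpd1 (0.936) and Cnpy3 (0.933). For Mdm2 they were Recql5 (0.993), Supt5 (0.986) and Pramel12 (0.985). The 3 genes closest to Mdm2 shared its low value in OGTi replicate 1, and without pair 1 their correlations were 0.959, 0.907 and 0.902 over 6 libraries. The points share libraries and treatment, and these values only describe the pattern.

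The wider set of p53 targets held calls in both directions. Of 30 other direct targets, all tested, 3 were higher and 3 lower (20% called, against 18.4% of all genes), with a median log2 fold change of -0.13. Gdf15, which encodes a stress-induced cytokine, rose most. It had 79.6, 112, 81.8 and 35.8 scaled CPM in control replicates 1 to 4 and 537, 377, 601 and 561 in OGTi replicates 1 to 4, with no overlap. Its log2 fold change was 2.83 ± 0.33 (SE, edgeR adjusted p 0.000589). Plk3, a polo-like kinase of the stress response, rose by 1.42 ± 0.27 (adjusted p 0.0061). Both kept their call in each of 14 alternatives.

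Cdkn1a encodes p21, the cyclin-dependent kinase inhibitor through which p53 arrests the cell cycle. Control replicates 1 to 4 had 1372, 1221, 1650.0 and 1966 scaled CPM and OGTi replicates 1 to 4 had 2925, 1761, 2573 and 2558. It was higher in 4 of 4 pairs, although OGTi replicate 2 lay within the control range. The log2 fold change was 0.66 ± 0.18 (SE, edgeR adjusted p 0.0298), and the call was lost in 7 of 14 alternatives, with adjusted p from 0.00713 to 0.112. The call was lost at a similar or larger log2 fold change without replicate 2 (0.73, adjusted p 0.0549), without replicate 3 (0.67, 0.102), without replicate 4 (0.77, 0.0518) and with no replicate block (0.66, 0.069). It was lost at a smaller one with library totals alone (0.47, adjusted p 0.0851) and in limma-trend on TPM at both pseudocounts (0.33, 0.112 and 0.33, 0.101).

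The 3 targets that fell were Pidd1, Ptpn14 and Gtse1. Pidd1, a scaffold that activates caspase-2, went from 11.3 ± 4.11 to 3.25 ± 1.07 scaled CPM (SD, n = 4). This is a change of -1.77 ± 0.31 on the log2 scale (SE, edgeR adjusted p 0.00405). Ptpn14, a phosphatase that restrains YAP, had a log2 fold change of -1.41 ± 0.28 (adjusted p 0.00742). Gtse1, a microtubule-associated protein that is also a brake on p53 and peaks in G2, had one of -1.12 ± 0.22 (adjusted p 0.00742). Each was below control in all 4 cultures and was called in each of 14 alternatives. Of the 6 called genes, Gdf15 and Gtse1 held 1 pair of half-sites and Pidd1 more than 1, so that pairs occurred in genes that rose and in genes that fell. One pair of each is shown on the strand of the gene, with the cores of the half-sites in capitals.
Gdf15 (chr8:71084616-71084635, minus strand, exon 1, 1 mismatch): tgaCTTGcctgaaCTTGcct
Gtse1 (chr15:85744146-85744165, plus strand, intron 1, 1 mismatch): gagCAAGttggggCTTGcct
Pidd1 (chr7:141023216-141023244, minus strand, exon 2, perfect half-sites 9 bases apart): aggCTTGcttggcaagctgggaCATGtct

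Among 20 regulators and relatives of p53, 18 were tested, of which 1 was higher and 4 lower (27.8% called, against 18.4% of all genes, median log2 fold change -0.27). The 4 that fell encode kinases. Atm (log2 fold change -0.24, edgeR adjusted p 0.661) and Atr (-0.11, 0.847), which encode kinases too, did not pass and were named after their values were seen. Chek1 had a log2 fold change of -1.66 ± 0.34 (SE, edgeR adjusted p 0.00805), Chek2 one of -1.44 ± 0.27 (0.00527), Hipk2 one of -1.23 ± 0.25 (0.00737) and Prkdc one of -1.55 ± 0.41 (0.0263). Chek1, Chek2 and Hipk2 were called in each of 14 alternatives, and Prkdc in 10. Ppp1r13l, which encodes the p53 inhibitor iASPP, rose by 0.87 ± 0.27 (0.0483), a call lost in 7 of 14 alternatives and in every fit that left out a replicate.

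Mdm4, the partner of MDM2, did not pass (log2 fold change -0.29, adjusted p 0.443), nor did Ppm1d, the p53-induced phosphatase WIP1 (0.31, adjusted p 0.512). The p53 relatives Trp63 and Trp73 had a total of 5 counts each over the 8 libraries and were not tested. Cdkn2a, which encodes ARF and p16, had 0 to 4 counts per library.

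**Figure D4:**
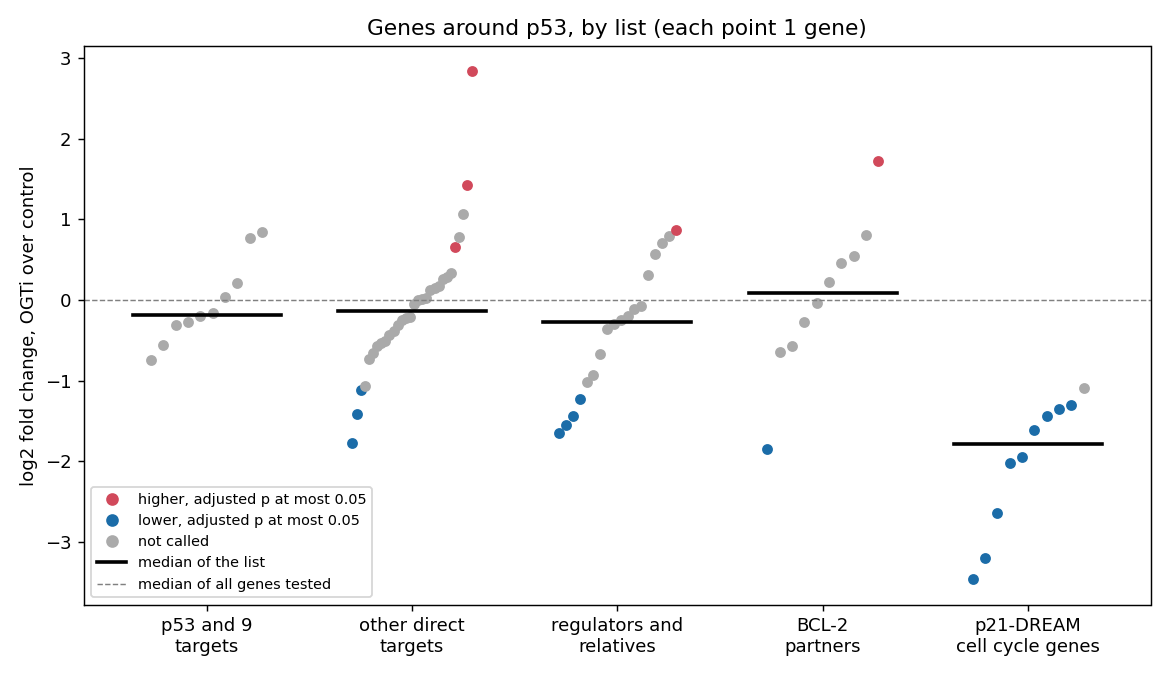
Log2 fold change of OGTi over control (vertical axis) for each tested gene of 5 lists, with the list's median as a black bar, the median of all genes as a dashed line, and genes called higher in red and lower in blue. The 10 members are all grey, the other direct targets hold 3 red and 3 blue points, and 9 of 10 cell cycle genes are blue.

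Genes of 2 processes that p53 feeds into were also counted. Of 10 cell cycle genes that p53 lowers indirectly, through p21 and the DREAM repressor, 9 were lower, against 10.2% of all genes. Of these 10, 0 were higher, against 8.13%, and their median log2 fold change was -1.78. The number lower was 6 to 10 over the alternatives. This list, like the others, was chosen with earlier results of these data known. Ccnb1, the mitotic cyclin B1, fell by 3.46 ± 0.28 (SE, edgeR adjusted p 0.000201) and Plk1 fell by 3.20 ± 0.26 (0.000201), followed by Bub1 (-2.64), Ccnb2 (-2.02) and Cdk1 (-1.94). These genes follow cell division in general, and whether p53 had a part in their fall was not tested. Cdc25c was the one not called (-1.09, adjusted p 0.0637). Of 11 BCL-2 partners of BAX and the BH3-only genes, 10 were tested, of which 1 was higher and 1 lower (20% called, against 18.4% of all genes, median log2 fold change 0.09). Bcl2l11, which encodes the BH3-only protein BIM, rose from 8.11 ± 2.43 to 26.8 ± 8.17 scaled CPM (SD, n = 4), or by 1.72 ± 0.25 on the log2 scale (SE, adjusted p 0.00156). Bcl2, the guard itself, fell by 1.85 ± 0.31 (adjusted p 0.00336).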

How the data were processed

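RNA-seq was analysed in 8 libraries (4 control, 4 OGTi). According to the labels and to the methods of the study, the authors made stranded, paired-end libraries after oligo(dT) enrichment, aligned reads with Bowtie2 (2.3.5.1) to mm39 (GRCm39) and counted them with RSEM (1.3.1). The deposited tables hold expected counts (RSEM estimates, often fractional) and TPM. Effective gene lengths were read from the same deposited tables (other values). A deposited table of the authors' own comparison (counts, normalized counts, fold changes and p-values from DESeq2) was not used. It holds 16 columns of per-sample values.

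Expected counts were rounded and genes with a total of at least 10 were tested with edgeR 4.0.16 (R 4.3.3), using TMM, glmQLFit and glmQLFTest with a block for the pair, and Benjamini-Hochberg adjustment over all 19963 genes. The standard error was the log2 fold change divided by the root of F. Scaled CPM are CPM on the TMM-adjusted library size. Pair differences are log2 ratios of scaled CPM with 0.1 added. The study's methods pair cultures of one replicate number. Deviations from group means correlated at 0.197, 0.283, 0.204 and 0.433 for numbers 1 to 4 and at -0.489 to 0.28 for unlike numbers. No source says that cultures came from separate mice, so p-values measure the spread between these cultures.

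The members and lists were chosen with earlier results of these data known. Named outside the members were the called genes with the 5 largest changes per list and direction, and Cdkn1a, Mdm4, Ppm1d, Cdkn2a, Trp63 and Trp73. Atm, Atr, Cdc25c and the marker genes were named after their values were seen. The gene tables carry RefSeq transcript identifiers, while the methods name GENCODE. Gene positions and start sites are those of GENCODE vM39 on GRCm39, the build of the files. The search of 4001-base windows was added to the planned search of RefSeq windows. Alternatives were other scalings, DESeq2 1.42.0, other filters, no block, limma-trend (3.58.1) on log2(TPM + 1) and log2(TPM + 0.1), removal of each library's length trend, and leaving out each pair.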

Additional observations from a re-analysis of the deposited data

Results flagged for a closer look

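Each gene's values were searched for a single outlying culture in 20 sets of 4 (10 genes in control and in OGTi). Chance would give 1 such set, and 3 were found. The sets share the same 8 libraries and are not independent, so that 3 against 1 is a description and not a test. Mdm2 had 188 scaled CPM in OGTi replicate 1, while its fellow treated cultures had 564 to 637. Ccng1 had 235 scaled CPM in OGTi replicate 1, against 619 to 673. Bbc3 had 1.77 scaled CPM in OGTi replicate 4, against 2.26 to 2.29, on 55 to 79 counts per library.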

How the results depend on the processing

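In the scaling alternatives each member but Zmat3 kept the direction of its log2 fold change, and Zmat3 was -0.15 with library totals alone. Upper-quartile scaling moved the median of all genes to 0.13, library totals alone to -0.19, limma-trend on log2(TPM + 1) to -0.10 and on log2(TPM + 0.1) to -0.24. Of the members, 0 were lower and 0 higher. With library totals alone 2 were lower (Ccng1 -0.94, adjusted p 0.0202, and Bax -0.75, 0.0197), with no low-count filter 1 was lower (Ccng1 -0.75, 0.00899) and 1 was higher (Phlda3 0.76, 0.034), and with the length trend removed 1 was lower (Bax -0.67, 0.00904). In limma-trend 3 were lower at either pseudocount (Trp53 -0.60 and -0.60, adjusted p 0.0194 and 0.0197, Ccng1 -1.08 and -1.08, 0.0444 and 0.0352, and Bax -0.88 and -0.88, 0.00833 and 0.00661), and all genes called lower numbered 3456 and 3473. Leaving out 1 pair at a time gave 0 to 1 members higher and 0 to 1 lower, with log2 fold changes of -0.68 to -0.49 for Bax (called without replicate 1) and of 0.49 to 1.19 for Phlda3 (called without replicate 2), and 843 to 1433 of all genes higher and 1062 to 1744 lower, the fewest without replicates 3 and 4.

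Of the other direct targets, 3 were lower. This was 7 with library totals alone, 5 with DESeq2, no low-count filter or the length trend removed, 7 and 7 with limma-trend, and 3 to 5 without a pair (5 without replicate 1). Of the regulators, 1 was higher. This was 2 with upper-quartile scaling or DESeq2, 3 with the length trend removed, and 0 with library totals, with limma-trend (0 and 0) and in each fit without a pair (0 to 0). Of the cell cycle genes, 9 were lower. This was 6 with no replicate block, 7 to 8 without a pair, and 10 with library totals alone, no low-count filter or limma-trend (10 and 10). Of the BCL-2 partners, 2 were higher with DESeq2 or the length trend removed, and 2 lower with limma-trend on log2(TPM + 0.1). The named genes and the other genes of these lists gave 875 values on the same side of the threshold, 47 newly past it and 27 no longer past it, and 0 called values changed sign. The uncalled Mdm2, Pmaip1 and Zmat3 kept their sign in 12, 11 and 9 of 14 alternatives, and each other member in all 14.

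With no replicate block, so without the pairing, 0 of 10 members were called and 2991 of all genes, against 3666 with it. Ccng1 was then at -0.64 (adjusted p 0.165), Mdm2 at -0.05, Bbc3 at 0.78 and Phlda3 at 0.56 (0.499). Depth was lowest for Bbc3, at 31 to 79 counts per library.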
